A study of Mus musculus with 20 samples.

Results

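The 10 genes described here encode the main heat shock chaperones of the mouse and the factor that switches them on: Hsph1, Hsp90aa1, Hsp90ab1, Hspa8, Hspa1a, Hspa1b, Dnajb1, Hspe1, Hspd1 and Hsf1. They were 10 of 21900 protein-coding genes in the gene table. They were chosen by name and not by a cut on a measured value, but with earlier results of these data known. For each gene, all regions called for the acetylation of lysine 27 of histone H3 (H3K27ac), which active promoters and enhancers carry, that overlapped the gene or its 5 kb flanks were taken, and their tags and lengths were summed. This stretch is called a locus below. The libraries came from mouse hepatocytes, the cells that make up most of the liver, freed by a perfusion in 2 steps. The young group was C57BL/6N mice aged 5 months and the old group C57BL/6J mice aged 23 months, with 5 H3K27ac libraries each. No genetic change or drug is given in the labels. Age and substrain coincide, so the 2 cannot be told apart in any value below. Whether the libraries of a group stem from different mice is not stated, and p-values here cover only the spread between libraries, which may be technical. Tags are the authors' values, scaled to 10000000 tags per library.

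Heat shock chaperones bind proteins that are unfolded or not yet folded. HSP70 proteins hold short stretches of such proteins, J-domain proteins such as DNAJB1 bring them clients and start their ATPase cycle, and HSP110 proteins such as HSPH1 exchange the nucleotide so that the client is let go. HSP90 takes over clients that are close to their native form, among them steroid receptors and kinases, while HSPD1 and HSPE1 form the folding chamber of mitochondria. HSF1 is held inactive in unstressed cells, and on stress it binds as a trimer to heat shock elements, which are repeats of the letters GAA and TTC in alternating direction, in the promoters of these genes. In the liver, the constitutive members serve a cell with a very high rate of protein synthesis.

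The RefSeq promoter table (GRCm38.p6, the assembly to which the mm10 coordinates of the region lists correspond) held windows for 6 of the 10 genes, and none for Hsp90aa1, Hsp90ab1, Hspa8 and Hsf1. The 4 stretches below end at the base before the annotated start, and are shown because they hold the heat shock element letters next to which the acetylation was measured. Capitals mark each GAANNTTC or TTCNNGAA, searched on both strands, and sites that overlap run together. The stretches are the upstream parts of windows of 300 bases at chr5:149636287-149636586 (minus strand, Hsph1), chr17:34972107-34972406 (minus, Hspa1a), chr17:34959189-34959488 (minus, Hspa1b) and chr1:55087898-55088197 (plus, Hspe1).
Hsph1: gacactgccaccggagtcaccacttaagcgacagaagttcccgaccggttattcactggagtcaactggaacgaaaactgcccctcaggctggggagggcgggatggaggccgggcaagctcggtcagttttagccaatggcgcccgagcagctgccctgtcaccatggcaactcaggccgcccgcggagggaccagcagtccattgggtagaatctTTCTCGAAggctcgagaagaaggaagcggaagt
Hspa1a: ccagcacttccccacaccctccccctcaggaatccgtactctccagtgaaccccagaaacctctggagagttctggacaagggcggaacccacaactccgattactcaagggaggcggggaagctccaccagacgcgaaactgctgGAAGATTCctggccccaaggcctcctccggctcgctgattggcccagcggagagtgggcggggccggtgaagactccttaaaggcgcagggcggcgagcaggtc
Hspa1b: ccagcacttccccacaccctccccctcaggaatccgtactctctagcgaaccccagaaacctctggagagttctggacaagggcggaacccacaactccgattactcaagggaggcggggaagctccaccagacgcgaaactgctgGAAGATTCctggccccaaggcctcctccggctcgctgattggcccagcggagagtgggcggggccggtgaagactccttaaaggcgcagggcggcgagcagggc
Hspe1: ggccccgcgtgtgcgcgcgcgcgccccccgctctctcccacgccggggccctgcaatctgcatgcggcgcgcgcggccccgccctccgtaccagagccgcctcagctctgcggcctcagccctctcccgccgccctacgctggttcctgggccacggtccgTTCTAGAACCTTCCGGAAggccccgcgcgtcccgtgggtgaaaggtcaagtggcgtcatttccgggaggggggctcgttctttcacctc
A pair of units (GAANNTTC or TTCNNGAA) stood in a window of 5 of the 6 genes, all but Dnajb1, against 15.1% of all 32851 windows and 17.0% of 27025 genes. Elements with 3 alternating units in a row, each parted by 2 bases, stood in windows of Hsph1, Hspe1 and Hspd1 and in 0.603% of all windows (0.662% of genes). Hsph1 carried its 3-unit site, TTCTGGAAAGTTC, just downstream of the annotated start (chr5:149636288-149636300), past the end of the stretch printed. In the stretch shared by Hspe1 and Hspd1, which are transcribed away from each other, the sites TTCTAGAACCTTC and GAACCTTCCGGAA overlapped (chr1:55088059-55088076), 89 to 72 bases before the start of Hspe1. CCAAT or ATTGG, the letters bound by the promoter factor NF-Y, stood in a window of 5 of the 6 genes, all but Hspe1, and in 37.4% of all windows. The windows of Hspa1a and Hspa1b were identical at 296 of 300 bases (98.7%). They differed by C44T, T47C, T249G and C276T, with positions counted from 1 at the 5′ end of the window and the base of Hspa1a first. How reads that match both copies were placed is not given in the sources used here, so values at this pair are uncertain. A match of letters is a description and shows no binding.

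Total tags per library ranged from 6295930 to 15544145 and the number of called regions from 21213 to 30195. The IP efficiency, meaning the percentage of all tags that fell into called regions, averaged 40.17% ± 6.62 among young libraries and 31.89% ± 4.81 among old ones (± SD over 5 libraries each; exact two-sided permutation p = 0.0476), and leaving out any of 8 of the 10 libraries took this p to between 0.0556 and 0.167. It was 0.0317 without young 3 and 0.0159 without young 5. The median locus held 0.34 less on the log2 scale in old than in young libraries. Fitted differences below are given relative to the median locus, except for region borders and where no centring is stated. All 8 hepatocyte markers had regions in every library, with summed tags of 6570.6 to 9454.1 in young and 3735.7 to 6213.7 in old libraries. Fitted in the same way, all 8 were negative (median −0.34, and 0.01 per kb), against 49.6% of all loci. Of the 8, 0 passed the limma threshold, an adjusted p of 0.05, and 4 had an unadjusted p under 0.05, against 13.7% of all loci. Cps1, a urea cycle enzyme, was the farthest from 0 (−1.02 ± 0.23, limma adjusted p = 0.0806). Of the markers of other cells, 6 of 7 of Kupffer cells, 5 of 6 of stellate cells, 5 of 6 of lymphocytes and 3 of 5 of cholangiocytes had no region in any library, among them Clec4f, Lrat, Ptprc and Krt19. The rest of these lists had regions: Csf1r (Kupffer cells) in 1 library, Reln (stellate cells) in 9 and Cd79a (lymphocytes) in 9. Of the cholangiocyte markers, Sox9 had regions in all 10 libraries and Spp1 in 6. Summed tags were 0 to 12.5 in young and 0 in old libraries for Kupffer cells, 0 to 144 and 44.5 to 103.1 for stellate cells, 0 to 203.5 and 52.4 to 139.6 for lymphocytes, and 253.2 to 580.4 and 221.6 to 520.1 for cholangiocytes. Sinusoidal endothelial markers summed to 264 to 376.8 and 124.7 to 451.8, mostly from Stab2. Of these 6 markers, 5 had a region in some library: Stab2 in 10, Lyve1 in 9, Pecam1 in 7, Stab1 in 3 and Clec4g in 2. Kdr had a region in 0. What part the IP efficiency and the hepatocyte markers have in the differences below was not tested, apart from a fit with the IP efficiency as a covariate. In these bulk libraries, fewer cells with an acetylated locus and less acetylation per cell cannot be told apart.

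The largest signal of the HSP70 group lay at Hspa8, the constitutive cytosolic HSP70, on chromosome 9 (40801276 to 40805202). Its locus held 800.6, 920.3, 848.6, 805.4 and 615.7 tags in young libraries 1 to 5. In old libraries 1 to 5 it held 642.6, 593.1, 596.1, 597.0 and 565.5. The old libraries were close to each other and only young 5 fell into their range. The means were 798.12 ± 112.71 and 598.86 ± 27.71 (SD, n = 5 each). Relative to the median locus this left −0.06 ± 0.13 (log2 old minus young ± SE; limma adjusted p = 0.865), with a 95% interval of −0.35 to 0.23. It was 0.01 without young library 1, and the same without young library 3. The tags came from regions that, merged over the libraries, span the whole gene (chr9:40798424-40806894), which also holds the small nucleolar RNA genes Snord14c, Snord14d and Snord14e.

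The stress-inducible pair Hspa1a and Hspa1b, which encode nearly the same HSP70 protein, lies on chromosome 17. Hspa1b (34956429 to 34959238) held 376.1, 439.5, 388.9, 301.9 and 223.5 tags in young libraries. It held 211.3, 163.0, 236.5, 249.7 and 208.9 in old libraries. Only young 5 fell into the range of the old libraries, and the difference was −0.33 ± 0.22 (limma adjusted p = 0.534). It was −0.19 without old library 2, −0.07 without young libraries 1 and 3, −0.05 with flanks of 2 kb and −0.18 with regions weighted by their share inside the window. It turned to 0.38 when the 25% of regions with the lowest scores in each list were left out. That filter left Hspa1b as the only one of the 8 loci that could be fitted. A locus was fitted only if a region was left in all 10 libraries, and how the score relates to signal strength was not tested. Most of the tags of this locus were not at Hspa1b itself. A region at the ends of the long non-coding RNA gene 1110038B12Rik, the pseudogene Gm8696 and the small nucleolar RNA gene Snord52 (chr17:34949637-34953630) held 228.8 ± 71.11 and 125.72 ± 22.38 tags (−0.51 ± 0.23, limma adjusted p = 0.269). The region over the annotated start of Hspa1b (chr17:34957508-34962021) held 113.18 ± 24.03 in young and 83.28 ± 23.59 in old libraries (−0.17 ± 0.26, limma adjusted p = 0.776). It covered the heat shock element letters printed above in 4 young and 4 old libraries. The Hspa1b locus was also the least dense of the 8 loci tested, at the 20.8th percentile of tags per kb among all loci.

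Hspa1a (34969359 to 34972156) was the weakest of the 10 loci. Its tags were 42.5, 85.3, 46.3, 66.3 and 42.5 in young libraries and 25.9, 19.8, 35.8, 64.7 and 0 in old libraries, where 0 means that no region was called in the window. Its groups overlapped by old 4 alone, and it was not tested because a region was called in 9 of 10 libraries. A region within 1 kb of its annotated start, near an end of Hspa1l, was called in young 2, young 5 and old 4 only. In young 5 and old 4 it covered the start and the GAAGATTC site, and in the other 8 libraries no called region lay over the start of this inducible gene. The tags came mainly from a region further upstream with no gene end within 1 kb (chr17:34974671-34977811), with 48.34 ± 15.84 and 24.24 ± 11.44 tags (−0.74 ± 0.35, limma adjusted p = 0.305; −0.48 without old library 2). In old 5 the call of that region, with 14.3 tags, lay outside the window of the locus. A locus without a call can still hold signal below the calling threshold.

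Hsph1, the HSP110 exchange factor of HSP70 (chromosome 5, 149616843 to 149636498), had the most negative difference of the 8 loci tested. Its tags were 206.7, 275.9, 222.0, 267.1 and 220.3 in young libraries. They were 183.4, 156.9, 153.4, 137.3 and 77.8 in old libraries. Every old library lay below every young one as deposited (9.23% of all loci) and after centring (1.91%), and old 5 was the lowest. The means were 238.4 ± 30.95 and 141.76 ± 39.4 (SD, n = 5 each), and the difference relative to the median locus was −0.45 ± 0.15, with a 95% interval of −0.78 to −0.12. It did not pass the threshold (limma adjusted p = 0.242). All tags lay in 1 region over the start of the gene (chr5:149634372-149637309), which covered the 3-unit heat shock element letters in all 10 libraries. The called length of this region averaged 2213.4 ± 566.5 bp in young and 1393.4 ± 420.13 bp in old libraries, and its density was 114.78 ± 35.45 and 105.62 ± 34.01 tags per kb (0.06 ± 0.20 relative to the median locus, limma adjusted p = 0.955). This density difference turned to −0.12 without centring.

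Dnajb1, the J-domain partner of HSP70 in the stress response (chromosome 8, 83608175 to 83612653), was the only one of the 8 loci tested with a positive difference. It held 107.6, 309.8, 206.4, 315.7 and 265.1 tags in young libraries. In old libraries it held 228.6, 258.4, 186.7, 188.7 and 217.6. The old libraries lay inside the range of the young ones, in which young 1 was the lowest. The means were 240.92 ± 86.44 and 216.0 ± 29.84, lower in old libraries as deposited. Relative to the median locus the difference was 0.27 ± 0.22 (limma adjusted p = 0.6), and it was −0.07 without centring, 0.07 without young library 1 and 0.02 without young 1 and 3. The region covered the start of the gene and an end of the long non-coding RNA gene Gm42029 (chr8:83607173-83609810).

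Both cytosolic HSP90 genes held fewer tags, as deposited, in every old library than in any young one. Such a gap stood at 9.23% of all loci. Hsp90aa1, the inducible form (chromosome 12, 110691036 to 110696395), held 325.6, 487.2, 452.2, 390.5 and 295.9 tags in young libraries. In old libraries it held 247.9, 253.9, 270.4, 222.1 and 193.0. The means were 390.28 ± 81.12 and 237.46 ± 30.32, and the difference relative to the median locus was −0.36 ± 0.13 with a 95% interval of −0.64 to −0.07 (limma adjusted p = 0.266). It was −0.21 with flanks of 10 kb (limma adjusted p = 0.521) and −0.22 without young libraries 1 and 3. Its density was 137.84 ± 35.36 tags per kb in young and 107.62 ± 12.16 in old libraries (−0.15 ± 0.14, limma adjusted p = 0.754). This density difference lay between −0.25 (without young 1) and −0.08 (without young 2 or without old 5), was −0.09 without young 3, and with the IP efficiency as a covariate it was −0.05. Its called length was 2868.4 ± 296.73 bp in young and 2206.0 ± 122.94 bp in old libraries. Here too the groups did not overlap as deposited (3.83% of all loci), but they did after centring. The tags lay in 1 region over a gene end (chr12:110694076-110697667).

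Hsp90ab1, the constitutive form (chromosome 17, 45567778 to 45573261), held 748.5, 1097.1, 758.0, 1135.5 and 855.0 tags in young libraries. In old libraries it held 706.4, 606.8, 657.1, 521.1 and 605.1. The groups did not overlap as deposited, although old 1 and young 1 were close. After centring on the median locus they overlapped, with old 5 at 1.47 (log2) and the young libraries at 1.3 to 1.45. The means were 918.82 ± 185.53 and 619.3 ± 68.95 (−0.21 ± 0.10, limma adjusted p = 0.378). Most tags lay in a region over a gene end shared with the long non-coding RNA gene Gm35399 (chr17:45568763-45575663), which alone held 803.62 ± 103.02 and 509.88 ± 63.78 tags (−0.36 ± 0.11, limma adjusted p = 0.123). A neighbouring region at the ends of Nfkbie and Slc35b2 (chr17:45563302-45566154) also counted towards the locus. It was called in 3 young and 5 old libraries.

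The mitochondrial chaperonin genes Hspd1 (chromosome 1, 55077833 to 55088243) and Hspe1 (55088148 to 55091317) overlap head to head and share 1 region (chr1:55084470-55091261), so they are 1 measurement and not 2. This region held 771.2, 1220.9, 903.1, 1195.2 and 932.2 tags in young and 801.5, 895.2, 747.6, 645.7 and 593.2 in old libraries. Old 1 and old 2 lay within the range of the young libraries. The means were 1004.52 ± 195.66 and 736.64 ± 120.74 at Hspe1, which relative to the median locus left −0.10 ± 0.08 (limma adjusted p = 0.589; 95% interval −0.27 to 0.07). It was the densest of the loci described here, with 166.1 ± 29.0 tags per kb in young and 166.42 ± 34.2 in old libraries, at the 96.6th percentile among all loci. Hspd1 has a second, weak region inside the gene (chr1:55078981-55080678), called in 4 young and 4 old libraries. Its summed value was 1027.48 ± 196.24 and 754.94 ± 127.14 tags (−0.10 ± 0.08, limma adjusted p = 0.588).

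Hsf1, which encodes the heat shock factor (chromosome 15, 76477362 to 76501155), had weak and incomplete calls. Its tags were 0, 154.9, 0, 124.7 and 119.7 in young libraries and 0, 111.2, 88.7, 73.7 and 51.6 in old libraries. A region was thus called in 3 young and 4 old libraries, and the locus was not tested. That region (chr15:76476222-76479079) is shared with an end of Bop1, a ribosome biogenesis gene.

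**Figure D1:**
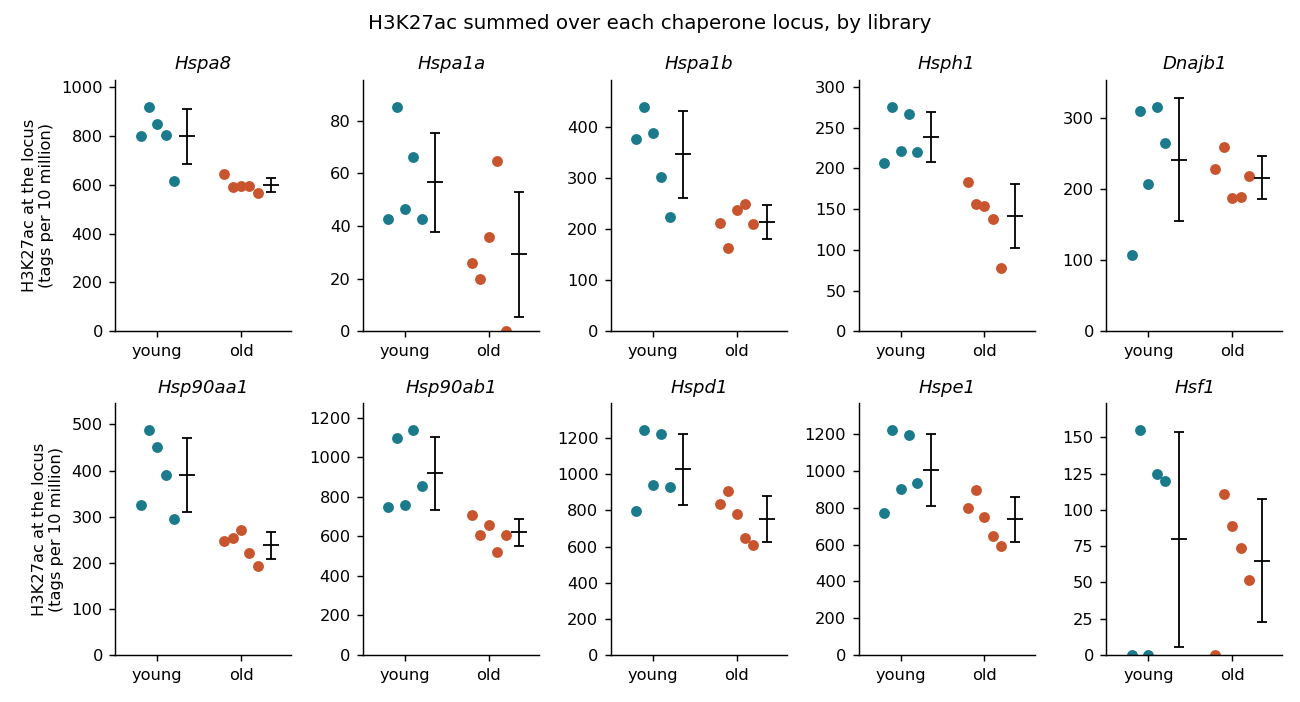
Tags summed over each locus (vertical axis, scaled to 10000000 tags per library, a separate scale for each gene) in the 5 young and 5 old libraries, with the mean and SD. At Hsph1, Hsp90aa1 and Hsp90ab1 all old libraries lie below all young ones, and at Dnajb1 and Hsf1 the ages overlap widely. At Hspa1a only old 4 reaches into the range of the young libraries.

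Over the 8 loci tested, 7 differences relative to the median locus were negative and the median was −0.15, against a median of 0 and 49.6% negative among all 9703 loci tested. With the locus shared by Hspd1 and Hspe1 counted once, 6 of 7 were negative in tags (median −0.21), 6 of 7 in length and 3 of 7 in density. Adjusted p-values passed the threshold at 0 of the 8 by limma, and at 0 by edgeR and by DESeq2. The background was 21 of all loci (0.216%) by limma, 47 by edgeR and 298 by DESeq2. At an unadjusted p of 0.05, 2 of the 8 passed by limma (Hsph1 and Hsp90aa1), in either direction against 13.7% of all loci. As deposited, all old libraries lay below all young ones at 3 of the 8, against 9.23% of all loci. After centring on the median locus this held for 2 of the 8, Hsph1 and Hsp90aa1, against 1.91% of all loci. Without centring, 87 loci passed, 85 of them lower in old libraries, where 9 lower and 12 higher passed with centring. The 8 loci then had adjusted p-values from 0.0587 (Hsp90aa1) to 0.866 (Dnajb1), so that 0 passed there too. With the IP efficiency as a covariate, Hspa1b was the most negative at −0.57 and Hspa8 stood at −0.26. Hsp90aa1 was then at −0.43 and Hsph1 at −0.38, with limma adjusted p-values of 0.376 and 0.454.

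**Figure D2:**
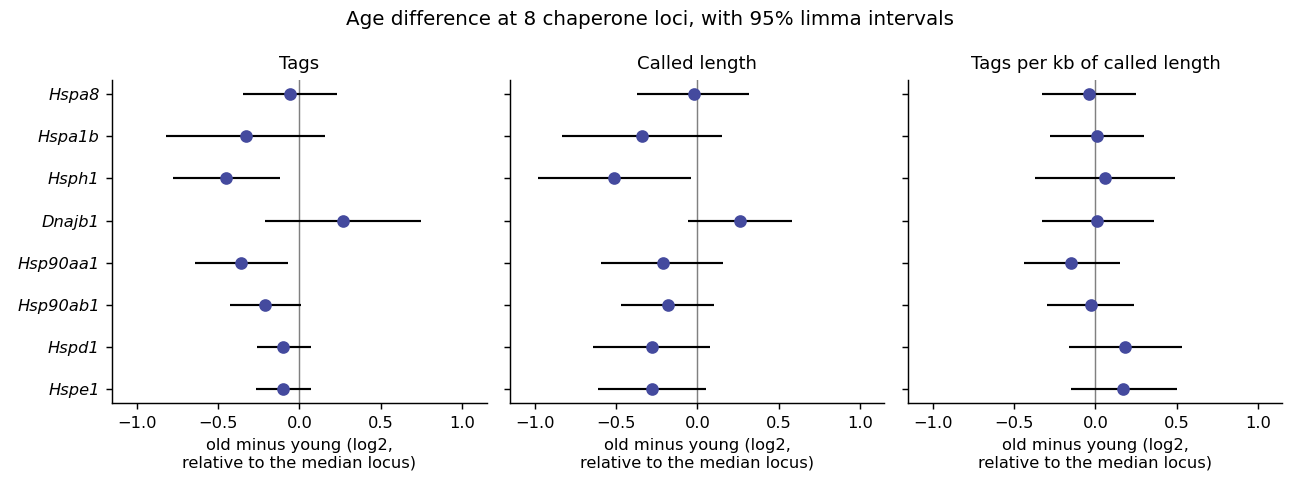
Log2 differences old minus young relative to the median locus (horizontal axis, points) with 95% limma intervals (lines) for tags, called length and density (tags per kb) at the 8 loci tested. For tags, the intervals of Hsph1 and Hsp90aa1 lie below 0. For tags per kb every interval includes 0.

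The tags of a locus are the product of its called length and its density, which were also fitted one by one. Relative to the median locus, the called length was smaller at 7 of the 8 loci (47.4% of all loci), by up to −0.51 ± 0.22 at Hsph1 (limma adjusted p = 0.465), and Dnajb1 was the exception with 0.26 ± 0.15 (limma adjusted p = 0.604). Limma called 0 of the 8 by length, against 0.0103% of all loci, and 1 had an unadjusted p under 0.05, against 9.78%. As deposited, all old libraries were below all young ones in length at Hsp90aa1, against 3.83% of all loci. Relative to the median locus, the density difference was negative at 3 of the 8 loci (Hsp90aa1, Hsp90ab1 and Hspa8), against 47.2% of all loci, with a median of 0.01, and the same value was the median of all loci. As deposited, mean tags per kb were lower in old libraries at 7 of the 8 loci, all but Hspe1, against 83.5% of all loci. Without centring the density differences ran from −0.32 at Hsp90aa1 to 0 at Hspd1. Relative to the median locus they ranged from −0.15 at Hsp90aa1 to 0.18 at Hspd1, and limma adjusted p-values from 0.729 to 0.988. Of the 8, 0 passed, with 0 at an unadjusted p of 0.05, against 0.0928% and 10.6% of all loci. At Hspe1 the 95% interval for density ran from −0.15 to 0.50.

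**Figure D3:**
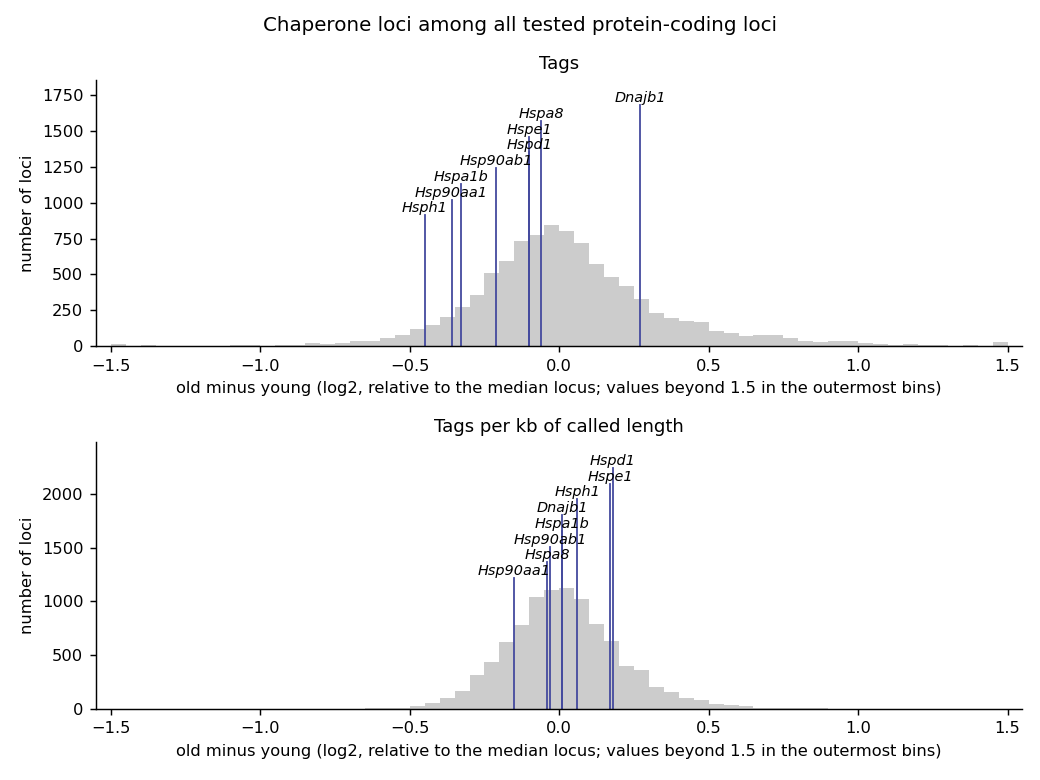
Histograms of the log2 difference old minus young relative to the median locus (horizontal axis) over 9703 loci, for tags (top) and density in tags per kb (bottom), with the 8 chaperone loci marked. For tags, Hsph1 and Hsp90aa1 stand at the 4.5th and 7.6th percentile, and for tags per kb the marked loci lie on both sides of 0.

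The same loci were then read region by region, over merged regions called in all 10 libraries. Of the 9 such regions in the loci described here, 3 had all old libraries below all young ones, against 8.3% of all 12550 regions. These were the regions over the gene ends of Hsph1 (−0.50 ± 0.15), Hsp90aa1 (−0.40 ± 0.12) and Hsp90ab1, with limma adjusted p-values of 0.123, 0.124 and 0.123. Limma called 0 of the 9, against 1.07% of all regions, and 4 had an unadjusted p under 0.05, against 17.2%. The fourth was the region at 1110038B12Rik beside Hspa1b.

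Where the called length changed was read from the region borders at the covered gene ends, a measure chosen after its values had been seen. The border inside the gene was compared at 4967 gene ends. Border differences were fitted without centring, and over all gene ends their median was −0.15 for inner and −0.1 for outer borders. At Hspd1 the region reached 3550, 3633, 2885, 3773 and 3213 bp into the gene in young libraries and 1916, 2036, 1964, 2659 and 1760 bp in old ones. All old libraries stopped short of all young ones. The means were 3411 ± 359 and 2067 ± 346 bp (log2 difference −0.73 ± 0.13, limma adjusted p = 0.0657), and leaving out 1 library at a time gave limma adjusted p-values from 0.0171 to 0.163. It passed the threshold without old library 4 (0.0171) or young library 3 (0.0392). Hsph1 and Hspa8 could not be compared in this way, because in old library 5 the region at Hsph1 stopped short of the gene end, and in some libraries the one at Hspa8 reached past the other end of the gene. Hspa1b and Dnajb1 had no gene end covered in all 10 libraries. Their regions reached 1387 to 2126 bp (young) and 1011 to 1587 bp (old) into Hsph1, and 3427 to 5618 bp and 1794 to 5164 bp from the first base of Hspa8, so that the ages overlapped at both. On the other side, within Hspe1, the border lay at 2733 ± 225 and 2533 ± 409 bp (limma adjusted p = 0.624).

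At Hsp90aa1 the region reached 1832 ± 367 bp into the gene in young and 1206 ± 101 bp in old libraries, again without overlap (−0.58 ± 0.14, limma adjusted p = 0.153). Its border outside the gene was at 1036 ± 133 and 1000 ± 45 bp (limma adjusted p = 0.919). At Hsp90ab1 the inner reach was 2842 ± 533 and 1820 ± 346 bp (−0.64 ± 0.16, limma adjusted p = 0.165), with overlap between the ages, and the outer 2160 ± 260 and 1935 ± 195 bp. Over all gene ends the median inner reach was 1498 bp in young and 1343 bp in old libraries, and the median outer reach 1015 and 934 bp. All old libraries stopped short of all young ones at 4.17% of inner borders, and limma called 0.181% as shorter. For outer borders these shares were 1.85% and 0.0201%. A border is set by the caller's threshold against the library's own input.

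**Figure D4:**
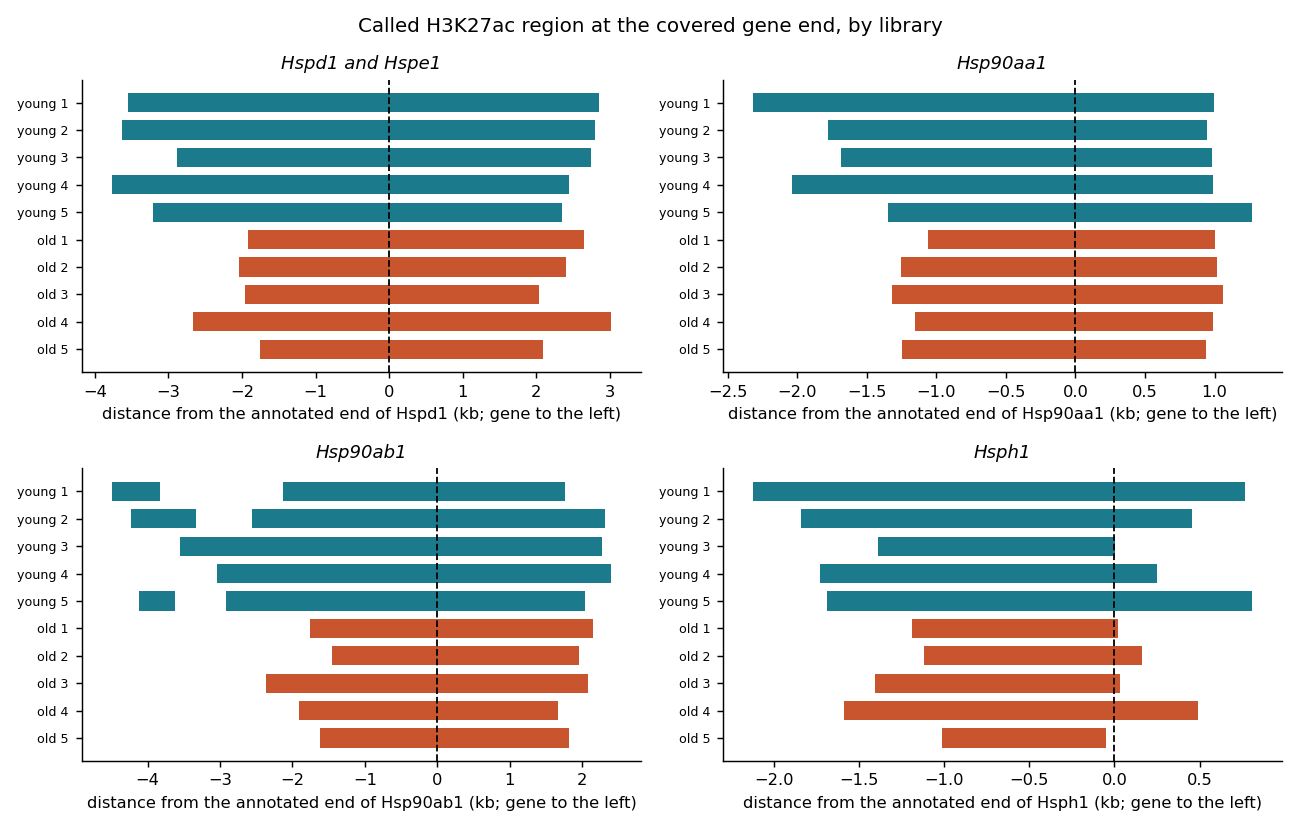
Called regions at the covered gene end in each library (bars) against the distance from that end (horizontal axis, kb, gene to the left). At Hspd1 and Hsp90aa1 the left border lies nearer to the gene end in all 5 old libraries than in any young one, while the right borders overlap between ages.

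Other chaperones and, beside them, the immediate early genes were described by 10 lists with 114 genes, of which 96 could be tested. Limma called 0 of them higher and 0 lower, with 10 at an unadjusted p under 0.05, against 13.7% of all loci. Negative differences numbered 57 of 96, against 49.6% of all loci, the median was −0.06, and per kb it was −0.01. The 9 lists of chaperones and their cofactors, without the immediate early genes, were negative at 53 of 83 genes with a median of −0.07, and 9 had an unadjusted p under 0.05. Endoplasmic reticulum chaperones were negative at 12 of 13 genes (median −0.17), but per kb at 8 of 13 (median −0.01). Dnajb11, a cofactor of the endoplasmic reticulum HSP70, was the farthest from 0, with 2280 ± 641 and 1060 ± 629 tags (−0.91 ± 0.34, limma adjusted p = 0.276; −0.14 per kb). The TRiC chaperonin and prefoldin, which fold actin and tubulin, were negative at 9 of 11 genes (median −0.10), and Tcp1 had the difference farthest from 0 (0.64 ± 0.75, limma adjusted p = 0.729). As deposited, the mean of Tcp1 was lower in old libraries, with 256 ± 139 tags in young and 208 ± 41.8 in old ones.

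HSP90 cochaperones were negative at 8 of 13 genes with a median of −0.17. Among J-domain cofactors 7 of 13 were negative (median −0.10), with Dnajc2, a ribosome-bound member, at −0.37 ± 0.19 (limma adjusted p = 0.413). The other HSP70 and HSP110 genes were negative at 4 of 4 (median −0.09), led by Hspa4l, a relative of Hsph1, at −0.27 ± 0.12 (limma adjusted p = 0.354). The list drawn up for nucleotide exchange and other HSP70 cofactors was negative at 5 of 10 genes (median 0.02). Hspbap1 stood farthest at −0.57 ± 0.18 (limma adjusted p = 0.218), although it is named after the small heat shock protein HSPB1 and not after HSP70. Small heat shock proteins were negative at 1 of 5 (median 0.06), which was Hspb8 at −0.34 ± 0.22 (limma adjusted p = 0.509). Of the same list, Hspb2 and Cryab held nearly equal tags, 279 ± 51.8 each in young and 227 ± 43.5 and 229 ± 43.3 in old libraries. The 5 may thus not be separate measurements. Mitochondrial chaperones and proteases were negative at 5 of 10 (median 0), with the protease subunit gene Clpp at −0.36 ± 0.39 (limma adjusted p = 0.701). The HSF family and its regulators were negative at 2 of 4 (median −0.03), with Hsf5 at −0.34 ± 0.19 (limma adjusted p = 0.453). Immediate early genes, which are switched on within minutes of handling or stress, were negative at 4 of 13 (median 0.05). Myc, one of these 4, stood farthest from 0 at −0.55 ± 0.35 (limma adjusted p = 0.504). The lowest adjusted p of this list was that of Fos, which was positive at 0.42 ± 0.09 (limma adjusted p = 0.0757; 0.14 per kb). Its tags as deposited were 584 ± 117 in young and 608 ± 67.1 in old libraries.

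**Figure D5:**
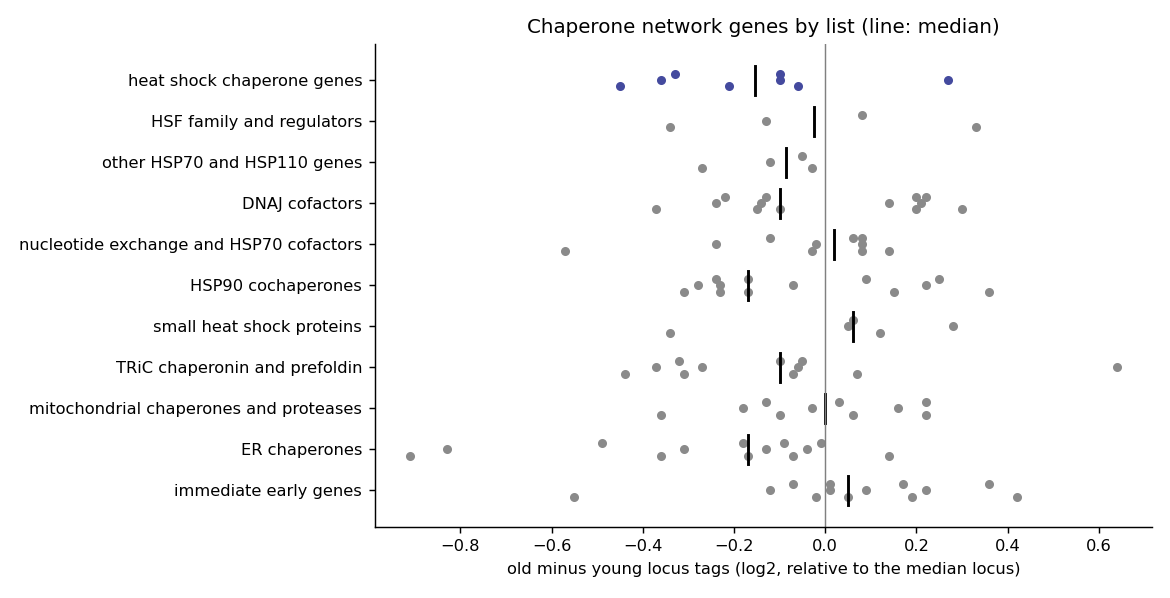
Log2 difference old minus young in locus tags relative to the median locus (horizontal axis) for each tested gene of the heat shock chaperone genes and of 10 lists (rows), with the median as a line. The medians lie between −0.17 and 0.06, and no gene shown passed the limma threshold.

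The 8 loci did not move as one across the libraries. Over the 10 libraries, the 28 pairwise correlations of their centred values ran from −0.54 to 0.97 (the latter from loci that share a region) with a median of 0.3, and their correlations with the IP efficiency from −0.4 to 0.6 with a median of 0.26. These correlations share the libraries and their scaling and are descriptions. The 5 genes whose values followed the mean of the 8 most closely, by Pearson correlation over 10 libraries, were Ctnnb1 (beta-catenin, 0.96), Wipi1 (0.92), Parp4 (0.92), Ubac2 (0.91) and Gopc (0.91). In that mean, the region shared by Hspd1 and Hspe1 counted under both genes. The 5 genes were the top of a ranking over all loci that share no region with those described here, so their correlations are high by choice. The age differences of these 5 genes ran from −0.14 ± 0.09 at Ctnnb1 to −0.73 ± 0.18 at Parp4, with limma adjusted p-values of 0.538 and 0.12.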

How the data were processed

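Regions had been called by the authors with HOMER, per the file headers, in each library against its input, as peaks of 500 bp at least 1000 bp apart stitched together, at 4-fold over the input and over the surrounding 10000 bp and a Poisson p of 1e-04. The submitters' processing notes name mm10 as the build. Aligner and HOMER version are not given in the sources used. The deposited signal was tags scaled by the authors to 10000000 per library. Unscaled tags, deposited in steps of 0.5, were taken for expected counts and rounded for edgeR and DESeq2. The deposited input signal, the ratio over input, the HOMER score and the length in bp (an other unit) were used as the authors gave them. Files of the 10 input samples and values scaled to the human spike-in chromatin were not analysed here.

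Tags, length and tags per kb were summed per locus (gene with 5 kb flanks, GRCm38.p6 gene table, which gives no strand). Loci with a region in all 10 libraries (9703) were tested with limma 3.58.1 (mean-dependent prior) on log2 of the value plus 1 (length without it), each library centred on the median locus, with Benjamini-Hochberg adjustment over all loci at 0.05. Fold changes are on that scale and understate those of weak loci. Merged regions overlapped by at least 1 bp. Alternatives were edgeR 4.0.16 (quasi-likelihood) and DESeq2 1.42.0, other windows, scaling, filters and covariates, and each library left out. Software was Python 3.11.15 with matplotlib 3.10.9, pandas 2.3.3 and numpy 2.4.6, and R 4.3.3, and the limma step was tested on simulated data. The genes and lists were chosen with earlier results of these data known. Named were all 10 genes, per list any gene past the threshold or else the one farthest from 0, neighbours with an end within 1 kb of a region, and the 5 genes most alike over the libraries. One gene that this rule names is not reported here. No 2 libraries held identical values (0 pairs).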

Additional observations from a re-analysis of the deposited data

Results flagged for a closer look

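The called length at Hspd1 was 5566 bp in young library 5, while the other young libraries began at 7195 bp. It stood apart from the rest of its group by Dixon's test at the 95% level, which was applied to 60 groups of 5 values. Chance alone flags about 1 group in 20. In that library the weak region inside Hspd1 was not called. It also had the highest depth (15544145 tags) and the longest estimated fragment (620 bp), and their part in this value was not tested.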

How the results depend on the processing

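None of the 8 tested heat shock loci passed the threshold in locus tags, length or tags per kb under any alternative run. The number of all loci called varied from 21: it was 87 without centring, 56 with cyclic loess scaling, 0 with the IP efficiency as a covariate (1204 at an unadjusted p under 0.05), 1 with loci called in at least 5 libraries, 32 with regions weighted by their share inside the window, 1 with the lowest 25% of scores left out (where Hspa1b alone of the 8 could be fitted), 9 per kb, 47 with edgeR, 298 with DESeq2, 99 without young libraries 1 and 3, and 2 to 68 without each library in turn. The score filter dropped Hspe1, the densest of these loci, and kept Hspa1b, the least dense of those tested. How the score relates to density was not tested. The share of higher calls was 57.1% with centring, 2.3% without it, 88.9% per kb and 48.7% with DESeq2. Per kb, 9 loci became 5 without centring, 1 with the IP efficiency and 2 to 11 without each library. For length, 1 became 0 without centring and with the IP efficiency, and 0 to 7 without each library. For merged regions, 134 became 6 with the lowest scores left out and 30 to 255 without each library. Inner borders went from 9 to between 4 and 19, with 0 to 1 among these genes, and outer borders from 1 to between 1 and 6, with 0 to 1 among these genes. The inner one was that of Hspd1 and the outer one that of Hspe1, which are the same edge of their shared region. The cause of these changes in counts was not tested. Leaving out young libraries 1 and 3 together, genes without flanks, and the borders were chosen after seeing the data.

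Some differences changed sign. Without centring, Dnajb1 tags turned to −0.07, and the per kb values of Hsph1, Hspa1b, Dnajb1 and Hspe1 to −0.12, −0.17, −0.17 and −0.01. With the IP efficiency, per kb values of Hspa1b and Dnajb1 turned to −0.05 and −0.06. Against their tags, the per kb values of Hsph1, Hspa1b, Hspe1 and Hspd1 were 0.06, 0.01, 0.17 and 0.18. Hspa1b tags were 0.38 with the lowest scores left out, Hspa8 tags 0.12 without young libraries 1 and 3, and Hsp90ab1 per kb 0.07 over the gene without flanks. Without each library in turn, Hspa8 ran from −0.12 to 0.01 in tags and −0.10 to 0.09 in length; per kb, Hsph1 ran from −0.09 to 0.17, Hsp90ab1 −0.09 to 0.04, Hspa8 −0.14 to 0.03, Hspa1b −0.08 to 0.10 and Dnajb1 −0.11 to 0.12. The region of Hspa1b ran from −0.32 to 0.03, that of Dnajb1 from 0 to 0.33, the outer border of Hsp90aa1 from −0.07 to 0.03, and total tags, old minus young, from −1958679.2 to 92021.55.

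Same-numbered young and old libraries correlated by −0.06 to 0.18, and 2 of 5 matched their own number best. These values cannot show whether same-numbered libraries were prepared together. With the replicate block, 4 loci were called in tags, 6 in length and 74 merged regions, with 0 of the heat shock loci.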
